A study of Mus musculus with 6 samples.

Results

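Interferon-related genes were followed across 6 arrays of a mouse pro-B cell line in which a Gfi1b fusion protein was switched on. The authors' deposited table of changed genes was searched for Ifitm3, Dhx58, Ifih1, Csprs and EG432555, which is now Gm5431, and for rows now named Ifi206 or Ifi209. That gave 11 probe sets of 7 genes, out of 251 probe sets in the deposited table and 35557 on the arrays. Every probe set in the deposited table had a fold of 1.503 or more and a p of 0.0451 or less between the same arrays. These values are the extremes of its rows. The genes were thus chosen for their change. Their difference between the groups is therefore a description, and its size, its direction and the number past a test support nothing further.

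The treated cells were cultures of an Abelson murine leukaemia virus transformed pro-B line, infected with a retrovirus encoding Gfi1b joined to the oestrogen receptor domain and kept in tamoxifen for 12 h (3 arrays). The cells they were set against were untreated cultures of the line with the same fusion (3 arrays), which the labels call Wt. Gfi1b is a DNA-binding repressor that acts in blood cell development, and tamoxifen activates proteins that carry this receptor domain. All groups shared the virus transformation and the fusion, and no array of tamoxifen-treated cells without the fusion was analysed here. The labels do not say whether the line is 1 clone. The replicates are described as biological, with nothing on whether they came from separate days. SDs below therefore measure only the spread between these cultures. Standard errors come from the fit named below, which also draws on the spread of other probe sets.

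Interferons are cytokines that bind surface receptors and activate STAT and IRF factors, which switch on many antiviral genes through a DNA motif called the interferon-stimulated response element. The products of such genes include sensors of viral RNA, membrane proteins that block virus entry, GTPases that attack the vacuoles of intracellular pathogens, and nuclear proteins that bind DNA. Lymphocytes express several of these genes at a resting level without added interferon.

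The 7 genes did not share a direction. Ifitm3, Ifih1, Dhx58 and Csprs were higher with tamoxifen (4 genes, 6 probe sets), while Gm5431, Ifi206 and Ifi209 were lower (3 genes, 5 probe sets). The largest differences were those of Gm5431, 4.10-fold lower with tamoxifen by its clearest probe set, and of Ifitm3, 2.94-fold higher. In all 11 probe sets the 3 tamoxifen arrays lay on one side of the 3 untreated arrays, which held for 18.3% of all probe sets (10.5% with tamoxifen higher and 7.78% with it lower). In a limma fit over all 35557 probe sets, with Benjamini-Hochberg adjustment at 0.05, 8 of the 11 passed, beside 0.889% of all probe sets. By direction, 5 of the 6 higher rows passed, beside 0.433% of all probe sets called higher, and 3 of the 5 lower rows, beside 0.456% called lower. The rows that did not pass were those of Ifih1 and Ifi209 and the dimmest of Gm5431. Since the members were selected by this contrast, nothing is read from these shares. RNA was taken from whole cultures, so that fewer cells expressing a gene and less RNA per cell cannot be told apart.

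**Figure D1:**
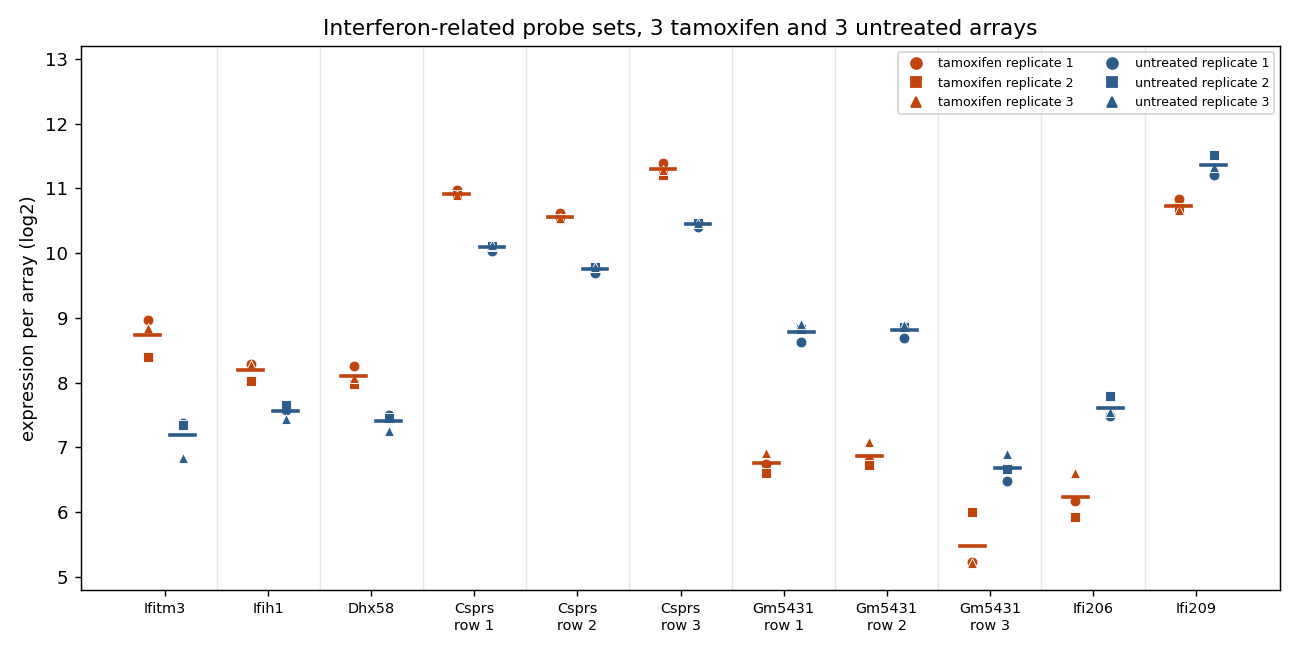
Deposited log2 expression of each interferon-related probe set on each array. Red marks are the 3 tamoxifen arrays and blue marks the 3 untreated arrays, with a symbol for each replicate number and a bar at each group mean; Csprs and Gm5431 have 3 probe sets each. The groups do not overlap in any of the 11 probe sets, with tamoxifen above untreated in 6 and below in 5.

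Ifitm3 encodes a small membrane protein that hinders the entry of viruses from endosomes. Its probe set (10569017; chromosome 7, band F5, per the deposited table) had log2 values of 8.97, 8.39 and 8.85 in tamoxifen replicates 1, 2 and 3, against 7.38, 7.34 and 6.84 in untreated replicates 1, 2 and 3. Tamoxifen replicate 2 was the lowest of its group and untreated replicate 3 the lowest of the other, and 1.02 separated the groups at their nearest. The means were 8.74 ± 0.31 with tamoxifen and 7.18 ± 0.30 untreated (log2, SD, n = 3 each), a difference of 1.56 with a standard error of 0.20. On a scale of ranks over all probe sets of an array, Ifitm3 stood at percentiles 62.3 to 68.1 with tamoxifen and 34.3 to 46.2 untreated. Such percentiles rank the signals of different probes and are not transcript levels that can be compared between genes. With 1 array left out, the difference lay between 1.38 and 1.73, and Ifitm3 did not pass the threshold in any of those 6 fits.

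Ifih1 and Dhx58 encode the cytoplasmic helicases MDA5 and LGP2, relatives of RIG-I. Ifih1 senses long double-stranded RNA, and Dhx58 has no signalling domain of its own and modulates the other sensors. The Ifih1 probe set (10483110; chromosome 2, band C3) read 8.29, 8.02 and 8.27 in tamoxifen replicates 1 to 3 and 7.58, 7.66 and 7.44 in untreated replicates 1 to 3 (log2). The Dhx58 probe set (10391207; chromosome 11, band D) read 8.26, 7.98 and 8.07 with tamoxifen and 7.50, 7.45 and 7.26 untreated. The signals of both helicases lay above the array medians, which were 7.52 to 7.61, on treated arrays and near or below them on untreated arrays. Their differences were 0.63 ± 0.098 for Ifih1 and 0.70 ± 0.10 for Dhx58 (log2, SE, n = 3 per group), or 1.55-fold and 1.63-fold. Tamoxifen replicate 2 was the lowest of the treated arrays for both. The closest tamoxifen and untreated values were 0.36 apart for Ifih1 and 0.48 apart for Dhx58. Dhx58, like Ifitm3, passed in none of the 6 fits with 1 array left out.

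The starts of Ifitm3 and Ifih1 are shown because each holds the core of the interferon-stimulated response element, GAAA and again GAAA with 2 bases of any kind between them, just after the RefSeq transcript start. Sequences are those of RefSeq in build GRCm38.p6, read 5′ to 3′ on the gene's strand, with matches to that core on either strand in capitals.
Ifitm3, chr7:141010715-141010744, minus strand, bases 1 to 30 of the transcript: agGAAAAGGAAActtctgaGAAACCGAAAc
Ifih1, chr2:62646206-62646235, minus strand, bases 21 to 50 of the transcript: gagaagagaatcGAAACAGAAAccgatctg
The Ifitm3 matches lie at bases 3 to 12 and 20 to 29, and the Ifih1 match at bases 33 to 42. In Ifitm3 a palindrome of the kind bound by STAT dimers, TTCNNNGAA, lies at bases 14 to 22 and overlaps the later of the 2 core matches. In Ifih1 the short sequence AATC, the core of the motif known for GFI proteins, lies at bases 29 to 32 directly before the match. A promoter sequence was at hand for 5 of the 7 genes, namely Ifitm3, Ifih1, Gm5431, Ifi206 and Ifi209. Over the 300 bases from 250 before to 50 after the start, the response element core occurred in 3 of these 5, beside 3.44% of the 32851 promoter windows in the table. In the 250 bases before the start it occurred in 1 of the 5, Ifi206, beside 2.98% of all windows. The palindrome TTCNNNGAA occurred over the 300 bases in 1 of the 5, beside 8.3% of all windows. Before the start it occurred in 0 of the 5, beside 7.02%. AATC is common, and over the 300 bases occurred in 5 of the 5, beside 73.1% of all windows.

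Csprs is named as a component of Sp100-rs, a chimaeric gene that joins parts of Sp100 and Csprs and is repeated many times in some mice. Sp100 itself is an interferon-induced protein of nuclear bodies, and Csprs has its place among these genes through that link rather than through a known response of its own. The first of its probe sets (10582879) read 10.97, 10.89 and 10.90 with tamoxifen against 10.03, 10.11 and 10.13 untreated (log2, replicates 1 to 3). The arrays of each group kept within a narrow band, and the nearest values of the groups were 0.77 apart. The means were 10.92 ± 0.042 with tamoxifen and 10.09 ± 0.050 untreated (SD, n = 3 each). The other probe sets gave 10.62, 10.52 and 10.55 against 9.70, 9.79 and 9.78 (10356274), and 11.39, 11.21 and 11.28 against 10.41, 10.46 and 10.47 (10347915), tamoxifen against untreated in each case. All 3 differed by nearly the same amount, 0.83 ± 0.058, 0.81 ± 0.059 and 0.85 ± 0.066 (log2, SE, n = 3 per group), and centred on their own means they departed from each other by at most 0.06 on any array.

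The 3 Csprs probe sets need not be 3 measurements of 1 locus. The deposited table places all of them at chromosome 8, band B1.3, whereas RefSeq places the gene on chromosome 1. Gm7609, a gene of chromosome 1 (probe set 10347925, band C5), followed the Csprs probe set 10347915 within 0.03 on every array once both were centred. Its values were 11.32, 11.12 and 11.20 with tamoxifen against 10.33, 10.35 and 10.40 untreated. Whether these probe sets read transcripts of several similar copies was not tested, and Csprs is uncertain in that respect.

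Gm5431 belongs to the immunity-related GTPases of the mouse, a family of neighbouring and similar genes induced by interferon that act against bacteria and parasites inside cells. Its probe set 10385526 (chromosome 11, band B1.2) read 6.74, 6.61 and 6.91 with tamoxifen against 8.63, 8.83 and 8.90 untreated (log2, replicates 1 to 3). Probe set 10385513 read 6.79, 6.72 and 7.09 with tamoxifen against 8.69, 8.86 and 8.89 untreated. In both, every treated array fell short of every untreated one by 1.60 or more. The differences were -2.04 ± 0.11 and -1.94 ± 0.11 (SE, n = 3 per group), and these 2 were the lower rows called in each of the 6 fits with 1 array left out. The signals of these rows stood at percentiles 30.2 to 41.0 of the arrays with tamoxifen and at 65.2 to 68.4 untreated.

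The third Gm5431 probe set, 10385504, was dimmer and less even. It read 5.23, 6.00 and 5.22 with tamoxifen against 6.48, 6.67 and 6.89 untreated, a difference of -1.19 ± 0.23 (SE, n = 3 per group). Tamoxifen replicate 2 stood apart within its group here, and all 3 tamoxifen values lay below the lower quartile of every array, 6.29 to 6.35. Centred, it departed from the other Gm5431 probe sets by up to 1.09. No measure of background was at hand, so that the fold of so dim a probe set is uncertain, and which members of the GTPase family each probe set reads was not tested. The 120 bases before the Gm5431 start are shown as those of the gene with the largest difference, and hold no match to the response element core.
Gm5431, chr11:48902153-48902272, minus strand, 120 bases before the start: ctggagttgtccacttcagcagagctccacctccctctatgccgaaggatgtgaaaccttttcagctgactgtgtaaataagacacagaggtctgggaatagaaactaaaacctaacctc

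Ifi206 and Ifi209 belong to the HIN-200 family of chromosome 1, band H3, whose proteins bind DNA through a HIN domain and in several members carry a pyrin domain. The Ifi206 probe set (10360367) read 6.17, 5.92 and 6.60 with tamoxifen against 7.48, 7.80 and 7.54 untreated. Its difference was -1.38 ± 0.18 (log2, SE, n = 3 per group), or 2.60-fold lower, and treated arrays placed it at percentiles 19.1 to 30.6. The Ifi209 probe set (10351873) read 10.83, 10.70 and 10.66 with tamoxifen against 11.21, 11.52 and 11.33 untreated. The Ifi209 signal thus stayed among the brighter ones of every array, at percentiles 85.3 to 86.9 with tamoxifen and 90.6 to 92.1 untreated. Its difference was -0.62 ± 0.096 (log2, SE, n = 3 per group), or 1.54-fold lower, close to the smallest fold that the deposited table holds. Tamoxifen replicate 2 was the lowest treated array for Ifi206, and untreated replicate 2 the highest untreated array for both genes. Over all probe sets these arrays held these places in 38.8% and 41.2%.

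The 120 bases before each start are shown for this pair because the genes are relatives and 1 of them holds the response element core.
Ifi206, chr1:173491319-173491438, minus strand: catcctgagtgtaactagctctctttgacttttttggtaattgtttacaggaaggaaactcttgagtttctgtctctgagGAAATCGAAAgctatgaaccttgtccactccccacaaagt
Ifi209, chr1:173630739-173630858, plus strand: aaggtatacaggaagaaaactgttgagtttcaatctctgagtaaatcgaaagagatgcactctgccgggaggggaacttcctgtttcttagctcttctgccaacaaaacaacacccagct
The Ifi206 match lies 40 to 31 bases before the start and contains the GFI core AATC at 38 to 35 bases before it. When the 250 bases before both starts were aligned, the Ifi209 bases opposite the match agreed at 9 of 10 positions, with the substitution G1T counted from the 5′ end of the match (Ifi206 base first). AATC occurred before the starts of 3 of the 5 genes, Ifi206, Ifi209 and Ifitm3, beside 69.0% of all windows, and the longer AAATCAC in 0 of 5, beside 2.75%. The response element core was thus found in windows of genes that were higher (Ifitm3, Ifih1) and of a gene that was lower (Ifi206) with tamoxifen. These matches describe letters in the reference and do not show binding.

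**Figure D2:**
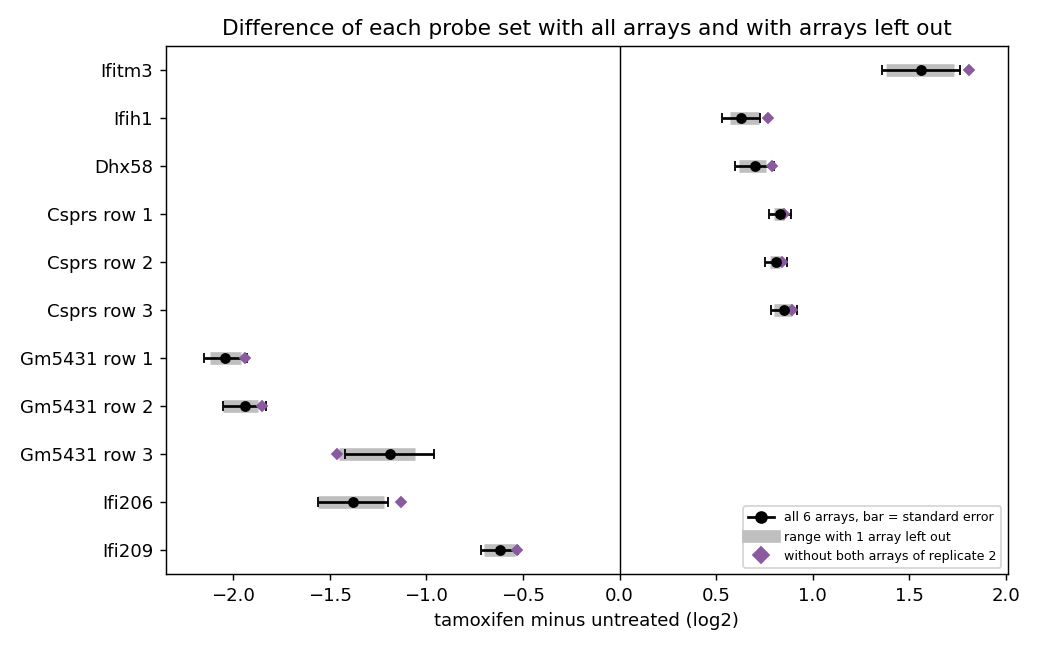
Difference between tamoxifen and untreated arrays (log2) for each interferon-related probe set. Black points are differences with all 6 arrays and their standard errors, grey bars span the fits with 1 array left out, and diamonds leave out both arrays of replicate 2. No probe set changes sign, and none could with arrays left out, since the groups do not overlap. Gm5431, Ifi206 and Ifi209 lie left of 0 throughout.

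The arrays of replicate 2 bear on these sizes. In the 6 rows that were higher, 3 of them of Csprs, tamoxifen replicate 2 was the lowest treated array each time. That array held this place in 38.8% of all probe sets, whatever their direction. It was the lowest in 3 of the 5 rows that were lower. In all 6 higher rows untreated replicate 2 also lay above its group mean. Leaving out both arrays of replicate 2 was thus bound to enlarge these differences, for example to 1.81 for Ifitm3 and 0.77 for Ifih1. Without these arrays Gm5431 (10385526), Ifi206 and Ifi209 had smaller differences, -1.94, -1.13 and -0.53, and the dim Gm5431 probe set a larger one, -1.46. Between the 2 arrays of replicate 2 alone, Ifitm3 differed by 1.06 and Ifih1 by 0.36, and Ifi206 by -1.88. These values set 1 array against 1, and same-numbered arrays are not taken as pairs. The genes kept their direction with and without these arrays, which was bound to happen because the groups did not overlap in any row. With 1 array left out, between 1 and 3 of the rows were called higher and between 2 and 3 lower. Over all probe sets the same fits called 9 to 278 higher and 28 to 136 lower, against 154 and 162 with all arrays. Removing any of the 6 arrays thus left 3 higher calls or fewer among these rows, against 5 with all arrays. Removing tamoxifen replicate 3 left 1, beside 9 of all 35557 probe sets.

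**Figure D3:**
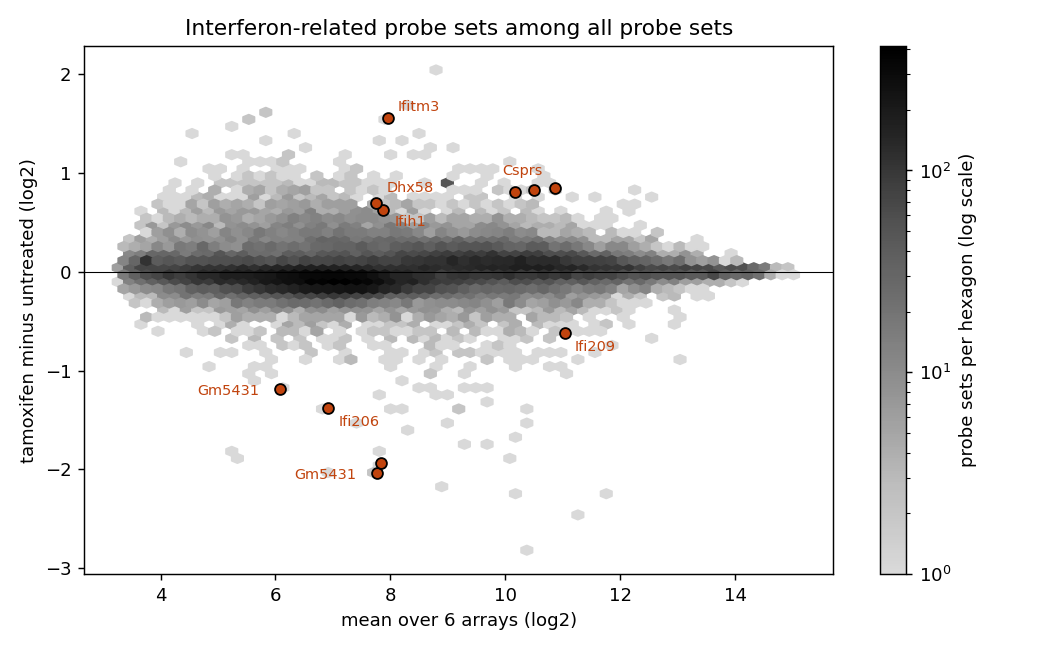
Difference between tamoxifen and untreated arrays against the mean level over 6 arrays, both log2. Grey hexagons count all 35557 probe sets on a log scale and red points are the 11 interferon-related probe sets, chosen from a table of changed genes. Csprs and Ifi209 lie among bright probe sets, while the dimmest Gm5431 probe set and Ifi206 have means under 7 on the x axis.

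Further genes of the interferon system were sought through 11 lists of 213 symbols, of which the deposited table names 14 genes in 19 probe sets. Because the table was chosen for change, a gene outside it was not analysed here rather than unchanged. Of the 19 probe sets 12 were higher and 7 lower with tamoxifen, and 8 and 4 passed the limma threshold. Counted by gene, 9 were higher and 5 lower. The other rows of the table numbered 90 higher and 142 lower. Passing was common among rows chosen this way. Of all 251 rows, these 19 included, 68 passed as higher and 114 as lower. The 19 also hold the 11 rows described first, so nothing is read from how many passed. Within several lists the few rows lay on one side. Both sensors of the RNA and DNA list that the table names, Ifih1 and Dhx58, were higher. So were all 6 rows of the Sp100 and nuclear body list, which come from 3 genes, Csprs, Gm7609 and Sp140. All 4 rows of the interferon-inducible GTPases, from 2 genes, Gm5431 and Gbp4, and both of the HIN-200 family were lower. Rows of 1 gene are not separate observations. Csprs and Gm7609, counted here as separate genes, need not be separate either, since a probe set of each agreed within 0.03 once centred.

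Outside the 7 genes, Gbp4, a guanylate-binding GTPase, read 8.34, 7.93 and 8.31 with tamoxifen against 9.27, 9.43 and 8.87 untreated, 1.99-fold lower (SE 0.17 in log2, n = 3 per group), and did not pass. Isg20, an exonuclease that degrades viral RNA, read 9.84, 9.76 and 9.80 with tamoxifen against 9.03, 9.02 and 9.12 untreated, and its difference of 0.75 ± 0.059 passed. Cish, a SOCS family inhibitor of cytokine signalling, differed by 1.07 ± 0.13 and passed, and Il10rb, a receptor chain shared by interleukin 10 and the lambda interferons, differed by -0.65 ± 0.083 and passed. Ifi30, a lysosomal reductase used in antigen processing, had a difference of 0.76 ± 0.16 and did not pass. The nuclear body gene Sp140 had differences of 0.61 ± 0.094 and 0.65 ± 0.14 in its probe sets, neither past the threshold, while Gm7609, at 0.86 ± 0.069, passed. The table names no gene of the STAT and IRF list and none of the 19 symbols of the MHC class I list. H2-T24, an MHC class I gene outside that list, stands in the authors' deposited table at a signed fold of 1.67 and is named here after its values were seen.

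**Figure D4:**
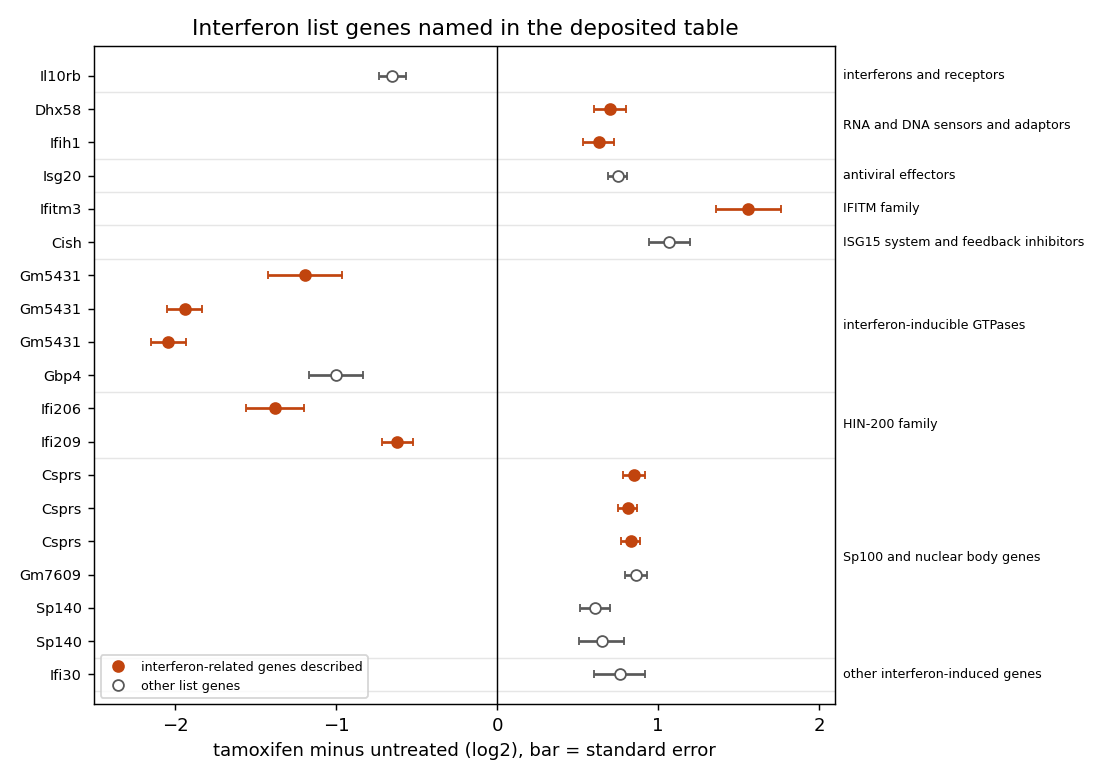
Difference between tamoxifen and untreated arrays (log2, bar = standard error, n = 3 per group) for every interferon list gene that the deposited table names. Filled red points are the genes described first and open points the other list genes, grouped by list. The 4 GTPase rows (2 genes) and the 2 HIN-200 rows lie left of 0, and the 6 Sp100 and nuclear body rows (3 genes) right of it. The rows of Csprs and Gm7609 need not be separate measurements.

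Because the genes differed in direction, the mean of their 7 profiles differed by -0.002 between the groups. The named rows nearest to that mean were therefore rows with small differences in either direction, among them P4ha1, Kdelr3, Ly9 and Fgl2, at root mean square distances of 0.298 to 0.304 on the log2 scale over 6 arrays. They differed by between -0.60 and 0.59 and follow no single member.

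The label of the cells was checked against 47 markers, of which the table names 7. Of the 3 pro-B and pre-B genes named, Rag1 stood at percentiles 68.2 to 70 with tamoxifen and 90.6 to 91.8 untreated, and Cd79b at 95.7 to 96.3 with tamoxifen and 93.1 to 93.6 untreated. Rag2 stood at percentiles 34.8 to 39.0 with tamoxifen and 64.2 to 68.0 untreated by probe set 10474105, and at 12.4 to 13.8 with tamoxifen and 18.4 to 25.1 untreated by the dimmer 10485370. The myeloid lysozyme Lyz2, the 1 of 8 myeloid and dendritic markers named, read 9.60, 9.40 and 9.26 with tamoxifen against 8.25, 8.21 and 8.02 untreated. It was thus higher alongside Ifitm3, and its part in these results was not tested. Cxcr5 of mature B cells and Prdm1 and Xbp1 of plasma cells were also higher with tamoxifen, by 1.02, 0.89 and 0.61 (log2). Markers of plasmacytoid dendritic cells, which make interferon, and of T, NK, erythroid and stromal cells were not analysed here.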

How the data were processed

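The authors' deposited matrix holds log2 expression per probe set for 6 one-colour arrays and was used as deposited; how arrays were normalized is not stated, and the submitters' processing notes name Partek. The authors' deposited table gives a p-value and a signed fold score per probe set, negative where expression was lower with tamoxifen; for these genes its log2 folds lay within 0.011 of the differences computed here. Groups and replicate numbers came from the sample titles. There the numbers of tamoxifen replicate 2 and untreated replicate 1 carry a letter A, which the titles do not explain. Differences were fitted with limma 3.58.1 in R 4.3.3 (lmFit, eBayes, no covariate), adjusted over 35557 probe sets, and the fit was tested on simulated data. The simulated noise was drawn separately for each probe set and array, so effects shared across an array were left out. Precision is limited by the few arrays. Of the 7 genes, 6 were matched to RefSeq (GRCm38.p6) by accession and Ifi206 by a synonym, EG240921, in place of its accession. Members, lists and tests were chosen with earlier results of these data known. All members, all list genes in the table and the 5 rows nearest to the members' mean profile were named, except 1 of these 5 that is not reported here. Alternatives were a replicate block, arrays left out, quantile normalization, median centring, fewer probe sets and an intensity trend. Proteins were not used here.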

Additional observations from a re-analysis of the deposited data

How the results depend on the processing

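Over the 11 probe sets, all 110 differences under an alternative kept their sign, and 107 moved by less than 1 SD between replicates. This shows little for genes chosen by this contrast, and with arrays left out the sign was bound to hold, since the groups did not overlap. The replicate block cannot move a difference in this balanced design, so its values for the 11 probe sets were fixed in advance. Counts of calls moved more, for causes not tested. With all arrays 5 members were called higher and 3 lower; the replicate block called 0 and 2, and with 1 array left out 1 to 3 and 2 to 3. Without both arrays of replicate 2 they were 4 and 3. Without the low-numbered block of 6667 probe sets, 6 and 5 were called. Over all probe sets, against 154 higher and 162 lower, the replicate block called 6 and 16, and fits with 1 array left out 9 to 278 and 28 to 136. Counts were 247 and 85 without both arrays of replicate 2, 515 and 342 without probe sets under the median level, 332 and 308 without the low-numbered block, and 410 and 311 with an intensity trend. Quantile normalization gave 309 lower and median centring 104 lower. Same-numbered arrays deviated from their group means with correlations of -0.229, -0.45 and -0.0957, so the numbers are not taken to pair the arrays. On row-standardised values 0 of the 5 nearest rows remained, and over whole windows 3 rather than 1 of 5 promoters held the response element core.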
